A study of Homo sapiens with 6 samples.

Results

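NUMB and NUMBL are paralogous genes, and what is described here is the set of transcripts that GENCODE release 44 assigns to them in poly-A RNA of K562 cells, a human erythroleukemia line. The set holds 39 transcripts, 28 of NUMB and 11 of NUMBL, of 251612 transcripts that could be matched to the annotation in each library. Member transcripts were taken by gene assignment and not by a cutoff on any measured value. The genes themselves were chosen with earlier results of these data known, and the study had already reported on a NUMB exon described below. The question was whether knockdown of PCBP1, an RNA-binding protein with a preference for stretches of C and a role in splicing, altered the level of either gene or the exons that NUMB transcripts carry. Cells had been transduced with lentivirus that carried an shRNA against luciferase (shCtrl) or against PCBP1 (shPCBP1) and were kept in 3 µg/ml puromycin for 4 days. Each group held 3 libraries. The labels do not say whether these came from separate transductions, so p-values measure the spread between libraries, which may be technical. An effect of the hairpin on other RNAs cannot be told apart from an effect of less PCBP1.

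NUMB is an adaptor protein of the cell cortex. It binds clathrin adaptors and cargo and is known best for holding down Notch signaling when it is inherited unequally at cell division. NUMBL is its close relative. Both carry a phosphotyrosine-binding (PTB) domain near the N terminus followed by a proline-rich region (PRR). In human NUMB, a short exon within the PTB domain and a long exon within the PRR are each included or skipped, which gives isoforms named PTBL or PTBS and PRRL or PRRS for the longer and shorter versions of each region. The PRRL forms are associated with proliferating cells and the PRRS forms with differentiated ones.

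NUMB lies on the minus strand of chromosome 14 (73275107 to 73458617, hg38, ENSG00000133961.21) and NUMBL on the minus strand of chromosome 19 (40665905 to 40690972, ENSG00000105245.9). The short exon has 33 bases and the long exon 144 bases, so each can be skipped without a shift of the reading frame. NUMB-213, which holds both exons, has 651 codons. NUMB-225, without the short exon, has 640 codons, NUMB-215, without the long exon, has 603 codons, and NUMB-211, which lacks both, has 592 codons. No exon of NUMBL-201 or NUMBL-207 had the length of either exon, and the other NUMBL transcripts were not compared. Around the position of the short exon the genes keep the same order of exons. Their neighboring 75-base exons were identical at 54 and 53 positions, and the 141-base exon that follows was identical at 100 positions (70.9%). NUMBL has instead a cassette exon of 85 bases near its 5′ end. NUMBL-201 includes it and starts translation in the first exon, with 1827 coding bases, whereas NUMBL-207 skips it and has 1704 coding bases.

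**Figure D1:**
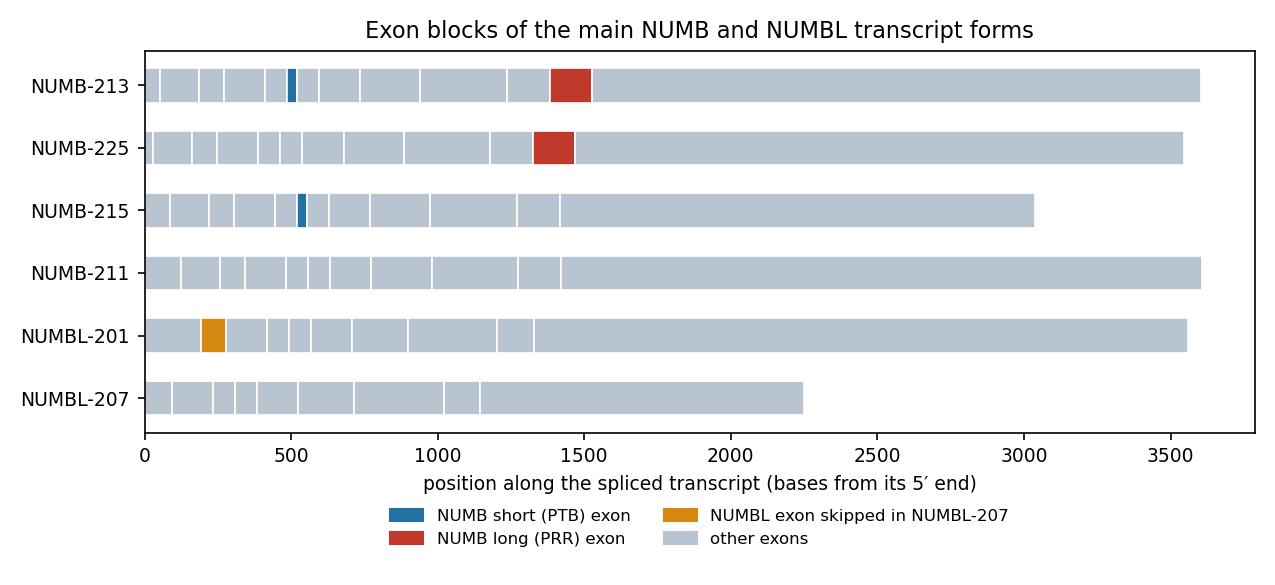
Exon blocks of 4 NUMB and 2 NUMBL transcripts, drawn to scale along the spliced transcript in bases from its 5′ end, with the alternative exons in color. The short NUMB exon lies 862 bases upstream of the long one, and NUMBL-201 differs from NUMBL-207 by an 85-base exon and by the length of its ends.

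The alternative exons of NUMB are shown because the isoforms compared below differ by them. Each sequence is the reference (hg38, minus strand, 5′ to 3′) with 50 intronic bases before the exon and 20 after it, and the capitals mark the exon. The regions printed are chr14:73279261-73279474 for the long NUMB exon and chr14:73316370-73316472 for the short NUMB exon.
NUMB long exon: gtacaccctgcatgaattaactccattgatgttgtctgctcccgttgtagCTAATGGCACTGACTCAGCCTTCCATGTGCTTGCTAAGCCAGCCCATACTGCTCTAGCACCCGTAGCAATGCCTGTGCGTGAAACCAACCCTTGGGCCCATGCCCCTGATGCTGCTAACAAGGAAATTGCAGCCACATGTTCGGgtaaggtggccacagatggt
NUMB short exon: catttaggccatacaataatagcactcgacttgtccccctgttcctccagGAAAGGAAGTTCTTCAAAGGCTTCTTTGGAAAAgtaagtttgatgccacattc

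C content was described because PCBP1 binds C-rich RNA. In the 50 intronic bases upstream, C made up 26% for the long NUMB exon and 34% for the short NUMB exon, beside a median of 22% over the 34153 distinct cassette exons tested. Of those exons, 37.7% had at least the C content upstream of the long exon and 18.3% at least that of the short exon. The letters CCCC, read in the direction of the transcript, occurred in the 100 bases upstream of the short NUMB exon, and in 28.9% of all such windows. They did not occur in that direction in the 100 bases upstream of the long NUMB exon. There CCCC was present only on the opposite strand, which the transcript reads as GGGG. The letters TCCC, also counted in the direction of the transcript, occurred 1 time upstream of the long exon and 2 times upstream of the short exon. In that direction 41.8% of all windows held TCCC. On either strand, 41.8% of windows held CCCC. The long exon itself was 32.6% C, against a median of 23.8% over all exons tested. A match of letters is a description and not a binding site.

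Total estimated counts ranged from 83033656 to 140522444 in shCtrl and from 67066747 to 85121124 in shPCBP1, so depth differed between groups. PCBP1 was at 18.1% of its shCtrl level in shPCBP1, with a log2 fold change of -2.47. Erythroid markers of K562 were present in every library, with 9 of 9 genes at a mean of at least 1 TPM and a summed level of 16292 to 19802 TPM in shCtrl and 19354 to 20327 TPM in shPCBP1. Of these 9, 3 rose and 1 fell by the gene-level DESeq2 test described below. Over all genes tested, 17.7% rose and 13.5% fell, and the other marker counts in this paragraph stand beside the same shares. The transferrin receptor gene TFRC rose by 0.35 on the log2 scale (adjusted p 8.01e-13), the transcription factor gene TAL1 by 0.19 and the fetal globin gene HBG1, whose reads may be split with its near-identical copy, by 0.16, and the erythropoietin receptor gene EPOR fell by 0.26 (adjusted p 0.00091). Of the megakaryocyte markers, 2 of 6 reached that level, and their summed TPM was 15.9 to 20.2 in shCtrl and 6.798 to 8.37 in shPCBP1. The platelet integrin gene ITGA2B fell by 1.91 on the log2 scale (SE 0.274, DESeq2 adjusted p 9.05e-11), ITGB3 rose by 0.45, and GP9 was listed at 0 in every library. Among markers of other lineages, 4 of 10 reached 1 TPM, with EPCAM the most abundant, and 3 of the 5 tested fell. The part of these marker changes in the results below was not tested. In bulk RNA, a change in the share of cells and a change in RNA per cell cannot be told apart.

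At the level of the whole gene, NUMBL rose on PCBP1 knockdown and NUMB did not pass the test. For NUMBL the shCtrl libraries gave 4001, 3567 and 3955 normalized counts, and the shPCBP1 libraries gave 5133, 4859 and 4834. Every shPCBP1 library was above every shCtrl library. The means were 3841 ± 239 and 4942 ± 166 (SD, n = 3), a rise of 0.36 on the log2 scale (SE 0.0588, DESeq2 Wald test with Benjamini-Hochberg adjustment, adjusted p 1.56e-08), or 1.29-fold with a 95% interval of 1.19 to 1.39. At this threshold 31.2% of 17095 genes tested were called, 17.7% higher and 13.5% lower in shPCBP1, and the median log2 fold change over all genes was 0.0019. NUMBL stayed past the threshold in each of the 11 alternatives run, with log2 fold changes of 0.31 to 0.39.

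For NUMB the shCtrl libraries gave 5175, 5580 and 5350 normalized counts, and the shPCBP1 libraries gave 5689, 5654 and 5551. The groups overlapped, since shCtrl replicate 2 lay above the lowest shPCBP1 library. The log2 difference was 0.07 (SE 0.049, DESeq2 adjusted p 0.299), and its 95% interval ran from a 0.982-fold to a 1.12-fold level. A change of the size seen for NUMBL therefore lay outside the interval for NUMB. The difference between the genes was examined within libraries: the log2 ratio of NUMBL to NUMB was -0.37, -0.65 and -0.44 in shCtrl and -0.15, -0.22 and -0.20 in shPCBP1. The groups did not overlap, and the exact permutation test (two-sided) gave p = 0.1, the smallest that 3 against 3 libraries allow.

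Levels of the genes can be set side by side on the TPM scale, which accounts for transcript length. NUMB summed to 23.6, 26.6 and 25.4 TPM in shCtrl and 28.3, 27.2 and 26.4 TPM in shPCBP1. NUMBL summed to 25.96, 22.95 and 24.8 TPM in shCtrl and 36.9, 32.96 and 32.8 TPM in shPCBP1. In shCtrl the pair stood at nearly the same level, and their order differed from library to library. NUMB made up 50.6% ± 3.004 of the summed TPM of both genes in shCtrl and 44.4% ± 0.963 in shPCBP1 (SD, n = 3, exact permutation p = 0.1). The NUMBL sums include NUMBL-208, a 393-base fragment without a defined coding sequence. It was listed at 0 throughout shCtrl and at 6.05, 2.54 and 2.73 TPM in shPCBP1, from few estimated counts. With NUMBL-208 left out, the groups would overlap in the NUMB share.

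**Figure D2:**
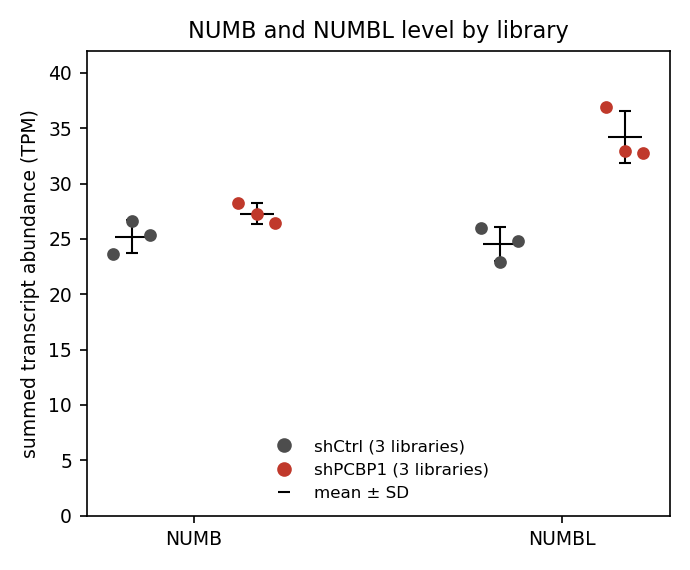
Summed TPM of all annotated transcripts of NUMB and of NUMBL in each of the 6 libraries, with points for libraries and bars for mean ± SD. The 3 shPCBP1 libraries of NUMBL lie between 32.8 and 36.9 TPM, all above shCtrl, while those of NUMB lie close to the shCtrl libraries. The NUMBL sums include the short fragment NUMBL-208, which is above 0 only in shPCBP1.

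A lncRNA, ENSG00000285006, overlaps NUMB on the same strand and shares 217 of its 818 exonic bases with it. It held 0 to 15 estimated counts per library, with all 3 shPCBP1 libraries above shCtrl, and DESeq2 gave it no adjusted p. No other GENCODE gene was found to overlap NUMB or NUMBL. By a fixed measure of likeness, the Pearson correlation of log2 normalized counts over the 6 libraries among 14180 genes, the genes most like NUMB were C2orf92 (r = 0.993), TMEM268 (r = 0.988) and KRT12 (r = 0.985). Those most like NUMBL were HM13, PNMA1 and BRCC3, each with r = 0.999. These are descriptions over 6 points that share library and group.

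Inclusion of the long PRR exon of NUMB averaged higher in shPCBP1, but it did not pass the test across all cassette exons. Percent spliced in (PSI) is the TPM of transcripts with the exon as a percentage of the TPM of both forms. For the long exon (chr14:73279281-73279424) PSI was 43.1%, 35.3% and 42.2% in shCtrl and 49.0%, 52.8% and 57.0% in shPCBP1. All 3 shPCBP1 libraries lay above all shCtrl libraries. The means were 40.2% ± 4.29 and 53.0% ± 3.997 (SD, n = 3), a difference of 12.8 percentage points. The exact permutation test (two-sided) gave p = 0.1, the smallest possible. In the limma fit over 37773 cassette exons, the log2 ratio of included to skipped TPM differed by 0.74 (SE 0.245, unadjusted p 0.0237, adjusted p 0.415) and ranked 2157th by p. In that fit 13 exons were called (0.0344%), whereas groups that do not overlap with a difference over 5 points were found for 6.27% of exons. In simulated data the fit called 17 of 200 exons that were shifted by 20 points, so it missed most differences of that size. The study itself had assayed this exon. It reported more inclusion on PCBP1 knockdown and more skipping on PCBP1 overexpression, from splicing calls on mapped reads and by RT-PCR. Both are other measures than the TPM shares used here. The exon was known from that work, whose splicing calls on knockdown came from this same experiment. The values here are therefore not independent evidence for it.

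The sums of both forms differed between the groups. Transcripts with the long exon summed to 7.83, 7.14 and 7.93 TPM in shCtrl and 9.84, 10.5 and 11.6 TPM in shPCBP1, without overlap. Transcripts that skip it summed to 10.3, 13.1 and 10.9 TPM in shCtrl and 10.2, 9.41 and 8.77 TPM in shPCBP1. The skipping sums also did not overlap, but shPCBP1 replicate 1, at 10.2 TPM, lay just under the lowest shCtrl library. The estimate rested on averages of 2569 and 2719 estimated counts per library for the included and skipped forms. Over 13 alternatives the difference stayed between 10.3 and 14.7 points with adjusted p-values of 0.184 to 0.636.

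The short PTB exon of NUMB (chr14:73316390-73316422) gave no such separation. Its PSI was 47.8%, 39.7% and 46.3% in shCtrl and 45.3%, 35.9% and 42.7% in shPCBP1, and the groups overlapped. The means were 44.6% ± 4.34 and 41.3% ± 4.86 (SD, n = 3), a difference of -3.31 points (limma adjusted p 0.841, exact permutation p = 0.5). The long exon minus the short exon gave -4.76, -4.43 and -4.13 points in shCtrl and 3.69, 16.9 and 14.3 points in shPCBP1. The groups did not overlap (exact permutation p = 0.1 for the contrast, the smallest possible). The PSI values of the exons rest on different transcripts, since NUMB-209 counts for the short exon but ends before the long exon. Their order therefore depended on the transcripts counted. Among transcripts that span both exons, those with only the long exon summed to 4.02, 6.71 and 5.78 TPM in shCtrl. Those with only the short exon summed to 3.93, 6.37 and 5.26 TPM in shCtrl. On that set the long exon was the more included in every library of both groups.

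**Figure D3:**
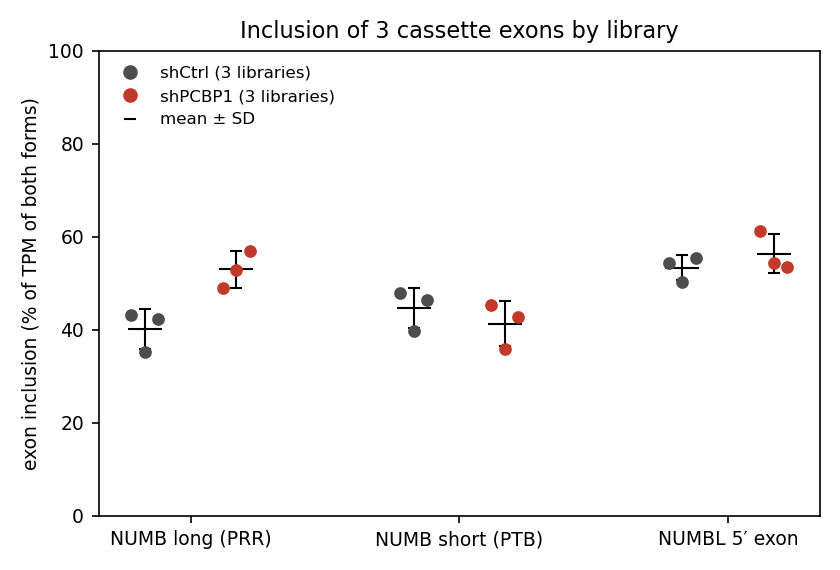
Inclusion of the long and short NUMB exons and of the 85-base NUMBL exon in each library, as a percentage of the TPM of both forms, with points for libraries and bars for mean ± SD. The groups are apart for the long exon, at 35.3% to 43.1% and 49.0% to 57.0%, and overlap for the other exons.

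The other cassette exons of NUMB overlapped between the groups. The 85-base exon upstream of the start codon had PSI of 73.0% to 80.7% in shCtrl and 73.0% to 79.3% in shPCBP1 (limma adjusted p 0.917). The 294-base exon and the 75-base exon just before the short exon were included at 96.9% or more in every library, and the 105-base exon near the 5′ end at 1.40% or less. For a 147-base exon, the annotated event covered only transcripts that also skip the 294-base exon. Both forms of that event were below 0.6 TPM. Its PSI ranged from 0% to 98.0% in shCtrl and from 0% to 100% in shPCBP1, so no level could be given for the event. The exon itself is held by NUMB-213, NUMB-225, NUMB-215 and NUMB-211.

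When both exons were considered together, PTBS-PRRL was the class that differed most. Of the 28 NUMB transcripts, 13 span both exons, and these held 69.5% to 74.8% of NUMB TPM. PTBS-PRRL transcripts (NUMB-203 and NUMB-225) summed to 4.02, 6.71 and 5.78 TPM in shCtrl and 9.64, 10.1 and 11.3 TPM in shPCBP1. Every shPCBP1 library was above every shCtrl library. As a share of the spanning TPM the class averaged 30.2% ± 5.93 in shCtrl and 52.8% ± 4.11 in shPCBP1 (SD, n = 3), a difference of 22.5 points that stayed between 19.2 and 24.8 points when any library was left out.

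PTBS-PRRS transcripts (NUMB-210, NUMB-211 and NUMB-216) differed in the other direction. They summed to 5.76, 6.24 and 5.16 TPM in shCtrl and 2.57, 3.92 and 1.79 TPM in shPCBP1, again without overlap. Their share averaged 31.6% ± 2.44 in shCtrl and 14.1% ± 5.66 in shPCBP1. For each of these classes the exact permutation test (two-sided) gave p = 0.1, or 0.2 after adjustment over the 4 classes, so neither can reach 0.05 in this design. Among transcripts without the short exon, the long exon was present in 41.1%, 51.8% and 52.9% of TPM in shCtrl and in 79.0%, 72.0% and 86.3% in shPCBP1. Where the short exon was held, the values went the other way, with overlap. There the long exon was present in 46.3%, 0% and 23.6% in shCtrl and in 0% throughout shPCBP1.

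The classes with the short exon overlapped between the groups. PTBL-PRRS, with 6 transcripts, summed to 3.93, 6.37 and 5.26 TPM in shCtrl and 7.44, 5.38 and 6.67 TPM in shPCBP1. PTBL-PRRL (NUMB-201 and NUMB-213) summed to 3.39, 0 and 1.62 TPM in shCtrl and was listed at 0 in all shPCBP1 libraries. It was also at 0 in shCtrl replicate 2. The exact permutation p was 0.4 for the share of each of these classes.

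**Figure D4:**
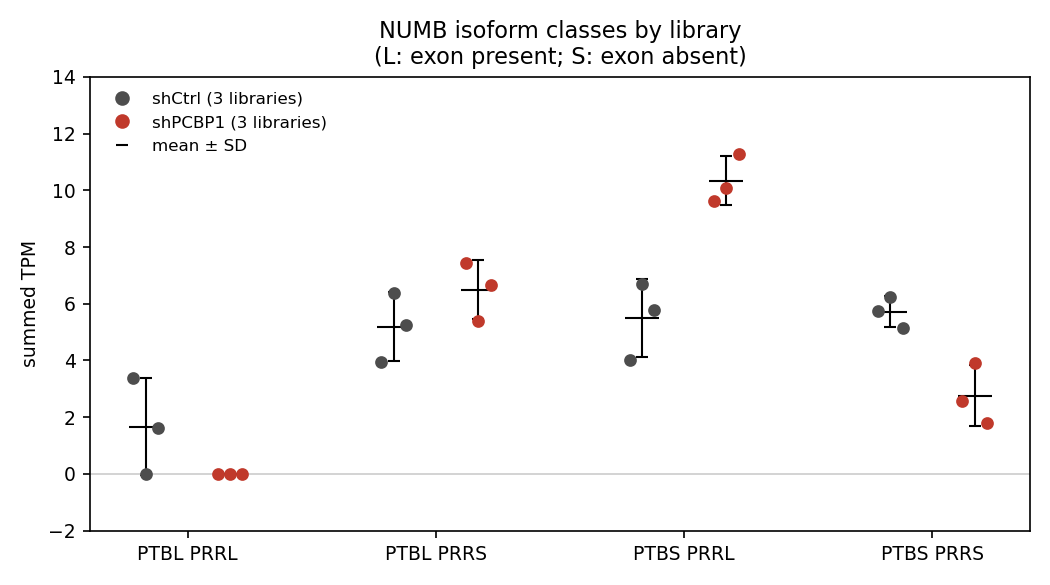
Summed TPM of the 4 classes of NUMB transcripts that span both alternative exons, by library, with points for libraries and bars for mean ± SD. PTBS-PRRL lies between 4.02 and 6.71 TPM in shCtrl and between 9.64 and 11.3 TPM in shPCBP1, and PTBS-PRRS is lower in every shPCBP1 library than in any shCtrl library.

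The joint classes were less directly measured than each exon alone. In NUMB-213 the exons are 862 spliced bases apart, while the effective transcript lengths implied mean fragments of 277 to 293 bases. A fragment of that length cannot cover both exons, and the pairing of the exons within a transcript was assigned by the model of Salmon from other differences between transcripts.

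Single NUMB transcripts showed larger swings than their classes, and none passed the test of abundance. Of the 28, 10 averaged at least 0.5 TPM, the other 18 averaged 0.396 TPM or less, and 7 of those were at 0 in all libraries. NUMB-225, the most abundant, had 4.02, 6.71 and 4.74 TPM in shCtrl and 5.06, 7.62 and 6.20 TPM in shPCBP1, with overlap. NUMB-203, which has the same coding length but whose model begins at the exon with the start codon, had 0, 0 and 1.05 TPM in shCtrl and 4.57, 2.47 and 5.09 TPM in shPCBP1. By these estimates most of the difference in the PTBS-PRRL class was assigned to NUMB-203. The transcripts differ only in the 5′ exons and at their ends, so the split between them was less certain than their sum.

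NUMB-211, the main PTBS-PRRS transcript, had 5.48, 6.24 and 4.56 TPM in shCtrl and 2.31, 3.48 and 1.79 TPM in shPCBP1, with a log2 difference of -1.11 (edgeR quasi-likelihood adjusted p 0.126). NUMB-215, a PTBL-PRRS transcript, had 2.03, 1.05 and 1.40 TPM in shCtrl and 4.04, 5.34 and 6.48 TPM in shPCBP1, with a log2 difference of 1.81 (edgeR adjusted p 0.0568). With DESeq2 on the same counts, NUMB-211 and NUMB-215 passed (adjusted p 0.000598 and 2.96e-08). The share of all transcripts that passed by DESeq2 was not recorded, so these calls cannot be set beside a background. NUMB-204 has the same coding sequence as NUMB-215 and had 1.82, 5.17 and 3.59 TPM in shCtrl and 3.40, 0 and 0 TPM in shPCBP1. The sum of the 2 transcripts was 3.86, 6.22 and 4.99 TPM in shCtrl and 7.44, 5.34 and 6.48 TPM in shPCBP1, with overlap. The pair differs only in the 5′ exons and in where the last exon ends, so the split between them was less certain than their sum.

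The other NUMB transcripts over 0.5 TPM overlapped between the groups. NUMB-209, an incomplete coding model that holds the short exon and ends before the long exon, had 2.61, 2.69 and 3.48 TPM in shCtrl and 3.58, 3.16 and 3.59 TPM in shPCBP1. NUMB-213 had 3.39, 0 and 1.62 TPM in shCtrl and 0 throughout shPCBP1. The retained-intron models NUMB-224, NUMB-208 and NUMB-207 averaged 1.31, 0.953 and 0.509 TPM over all libraries. Retained-intron models together held 9.75%, 12.6% and 10.3% of NUMB TPM in shCtrl and 15.1%, 13.2% and 8.78% in shPCBP1.

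Across all transcripts, edgeR tested 83895 for abundance and called 1108 (1.32%). For NUMB 14 transcripts were tested and 0 passed, with 2 at an unadjusted p under 0.05. For usage, where each transcript is compared with the others of its gene, edgeR tested 75105 and called 468 (0.623%), of which 0 were NUMB or NUMBL transcripts. The lowest adjusted p in usage was 0.299 for NUMB and 0.0804 for NUMBL, and 1 transcript of each gene had an unadjusted p under 0.05. The share of all transcripts at an unadjusted p under 0.05 was not recorded for abundance or usage, so these counts have no background. On simulated data the abundance test recovered 23 of 200 transcripts changed 3-fold, with 2 false calls. The usage test recovered 11 and made 184 false calls in unchanged genes, so a usage call could not have been relied on.

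NUMBL-207 was the only member transcript to pass in abundance. It skips the 85-base exon and had 7.09, 7.31 and 6.77 TPM in shCtrl and 9.82, 9.86 and 10.2 TPM in shPCBP1, with groups well apart. Its log2 fold change was 0.53 (edgeR quasi-likelihood adjusted p 0.0271). The call was lost when any 1 of the 6 libraries was left out, with log2 differences of 0.52 to 0.54 and adjusted p-values of 0.0888 to 0.121. NUMBL-201, which includes the exon, had 8.46, 7.40 and 8.40 TPM in shCtrl and 9.45, 9.21 and 9.01 TPM in shPCBP1. Its groups did not overlap either, but the log2 difference was 0.21 and did not pass (edgeR adjusted p 0.342).

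The share of the 85-base NUMBL exon depended on which transcripts were counted. Over the annotated event its PSI was 54.4%, 50.3% and 55.3% in shCtrl and 61.2%, 54.4% and 53.6% in shPCBP1, with overlap (limma adjusted p 0.838). That event counts NUMBL-208, a fragment of 393 bases without a defined coding sequence, listed at 0 throughout shCtrl and at 6.05, 2.54 and 2.73 TPM on knockdown. These values correspond to 55.2, 22.0 and 19.1 estimated counts (edgeR adjusted p 0.0687 in abundance). Between NUMBL-201 and NUMBL-207 alone, a comparison chosen after their values were seen, NUMBL-201 made up 53.4% ± 2.68 in shCtrl and 48.1% ± 1.06 in shPCBP1 (SD, n = 3, exact permutation p = 0.1). The sign of the difference was thus opposite with and without NUMBL-208.

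Coding transcripts held 93.0% to 96.4% of NUMBL TPM in shCtrl and 80.6% to 88.9% in shPCBP1, and NUMBL-208 held 7.71% to 16.4% in shPCBP1. The other NUMBL transcripts over 0.5 TPM overlapped between the groups. NUMBL-211, an incomplete model of 640 bases, had 9.08, 5.20 and 7.95 TPM in shCtrl and 6.91, 7.31 and 6.35 TPM in shPCBP1, with overlap. NUMBL-206 was between 0 and 2.54 TPM, and the retained-intron models NUMBL-205 and NUMBL-203 averaged 0.71 and 0.684 TPM. The other 4 transcripts averaged 0.473 TPM or less. Of these, NUMBL-210 did not overlap between the groups, and 1 other was at 0 in all libraries.

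Genes around NUMB and Notch were then counted from lists of textbook roles. Over 10 lists there were 94 genes, of which 84 were tested and 45 passed (53.6%), 32 higher and 13 lower, beside 31.2% over all genes. Their median log2 fold change was 0.05. No test of the lists was made. The lists were written with earlier results of these data known. Their genes were not matched to all genes by expression level, so the shares are a description only. Over all genes tested, 17.7% were higher and 13.5% lower, and the counts for single lists below stand beside these shares. By edgeR 34 of these genes passed, 21 higher and 13 lower. Without shPCBP1 replicate 2, 32 passed, 21 higher and 11 lower, so the number of rises was the less stable count.

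At the cell surface, JAG2 was the most abundant ligand by normalized count and NOTCH1 the most abundant receptor. Neither passed, with log2 differences of 0.05 and 0.04. Among ligands 1 of 4 tested rose, DLL3 (0.42, SE 0.167, DESeq2 adjusted p 0.0434), a call lost in all 11 alternatives. Among receptors 1 of 4 rose, NOTCH2, at 0.41 with an SE of 0.0945 (DESeq2 adjusted p 0.000132). Of the enzymes that mature or cleave Notch, 3 of 12 rose and 1 fell. The γ-secretase subunit NCSTN rose by 0.19 and the O-fucosyltransferase POFUT1 by 0.22, while RFNG, a fringe glycosyltransferase, fell by 0.40 (SE 0.0688, DESeq2 adjusted p 1.02e-07). FURIN, the convertase that cuts the Notch precursor, rose by 0.10, a call lost in 10 of 11 alternatives.

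Of the ubiquitin ligases that act on Notch, its ligands or NUMB, 4 of 10 rose and 3 fell. LNX1 and LNX2 bind NUMB, and LNX1 is known to target it for degradation. LNX1 fell by 0.47 (DESeq2 adjusted p 0.0489) and LNX2 rose by 0.28 (DESeq2 adjusted p 0.0492), both with overlapping groups and both lost in most of the 11 alternatives. MIB2, a ligase for Notch ligands, fell by 0.34 (SE 0.0748). MIB1, the most abundant of these by normalized count, did not pass.

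In the nuclear complex, 6 of 10 genes rose and 0 fell, with a median log2 fold change of 0.23. SPEN, a corepressor that binds RBPJ, rose by 0.45 (SE 0.0409, DESeq2 adjusted p 2.16e-25), from 21322 to 29027 normalized counts. The coactivators MAML2 and EP300 rose by 0.41 and 0.33. RBPJ, the DNA-binding factor of the pathway, had a log2 difference of -0.02 and did not pass. Notch targets went in both directions, with 3 of 6 higher and 1 lower. HES1 fell by 0.59 (SE 0.086, DESeq2 adjusted p 1.8e-10), whereas HEY1 rose by 0.47 (SE 0.0786) and NRARP by 0.38 (SE 0.0661). MYC, which has many other inputs, rose by 0.13.

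The endocytic genes with which NUMB works went in both directions. Of 16 tested, 3 rose and 3 fell, and the median log2 fold change was 0.01. EHD1, an ATPase of the recycling endosome, rose by 0.23 (SE 0.0597), and EPS15, a clathrin coat adaptor, fell by 0.20 (SE 0.0426). AAK1, a kinase of the AP2 adaptor, rose by 0.17, a call lost in 9 of 11 alternatives. Clathrin heavy chain, CLTC, had a log2 difference of 0.08 (DESeq2 adjusted p 0.0519).

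Among polarity genes and kinases, 3 of 10 rose and 3 fell. LLGL1, the homologue of lethal giant larvae, which acts against the PAR complex, fell from 2947 to 1357 normalized counts, a decrease of 1.12 on the log2 scale (SE 0.0857, DESeq2 adjusted p 1.62e-36). This was the largest change in the 10 lists among genes with a mean of at least 100 normalized counts. LLGL2 fell by 0.32 (SE 0.0823) and PRKCZ, an atypical protein kinase C, by 0.97 (SE 0.300, from 156 to 80.4 normalized counts). MARK3 rose by 0.12. Of other adaptors with a PTB domain, SHC1 and DAB2 fell by 0.20 and 0.12. Of 11 alternatives, the call was lost in 2 for PRKCZ, 4 for MARK3 and 5 for DAB2.

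Of 8 splicing factors that have been studied at the long NUMB exon, 7 rose and 0 fell, with a median log2 fold change of 0.14. Over all genes tested, 17.7% rose and 13.5% fell. PTBP1, a repressor of many cassette exons, rose by 0.29 (SE 0.0351, DESeq2 adjusted p 3.83e-15), from 57718 to 70744 normalized counts. RBFOX2 rose by 0.33 (SE 0.0581) and SF1, the branch point binding protein, by 0.17 (SE 0.03899). RBM6 was the member that did not pass. Their summed TPM was 840 to 867 in shCtrl and 971 to 991 in shPCBP1. Their part in the inclusion values of the long exon was not tested.

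**Figure D5:**
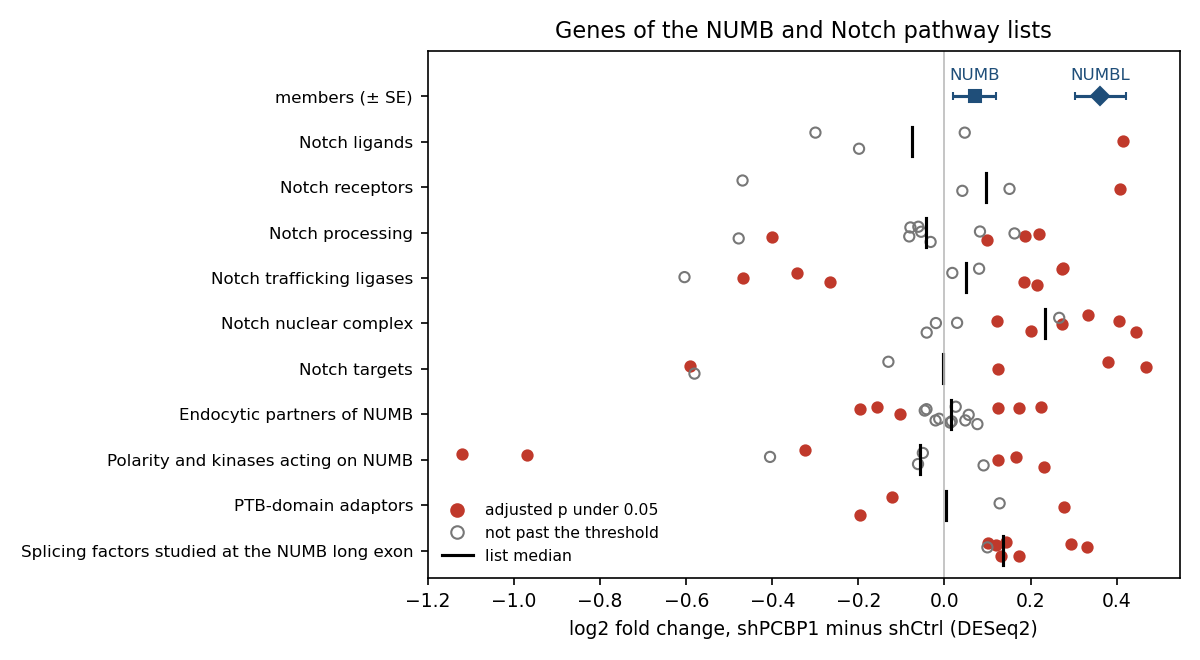
Log2 fold changes of the tested genes of the 10 lists, one row per list, with filled points for genes past an adjusted p of 0.05, open points for the others and a bar at the list median. NUMB and NUMBL are shown with their SE on the top row, at 0.07 and 0.36, and LLGL1 lies farthest to the left, at -1.12.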

How the data were processed

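Poly-A RNA was sequenced as paired ends of K562 cells in 2 groups of 3 libraries. The authors quantified transcripts with Salmon 1.10.2, and the build named in the submitters' processing notes is hg38. Which annotation release the index was built on is not given in the sources used here. The authors deposited estimated counts per transcript, which are fractional and carry no normalization. They also deposited TPM, which corrects for effective transcript length and adds up to 1000000 in each library. STAR 2.7.11b, FastQC and MultiQC, named in the same notes, made no file used here.

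Transcripts were matched to GENCODE release 44 without version numbers. Of 252045 transcripts 251612 matched, and the remainder held 0.136% to 0.147% of counts. Estimated counts were summed per gene, rounded and tested with DESeq2 1.42.0 (Wald test, two-sided, median-of-ratios factors) where the 6 libraries together held 10 counts or more. Cassette exons with a mean count of at least 10 for either form were tested with limma 3.58.1 with a trend, on log2 ratios of TPM with a pseudocount of 0.1, and called at an adjusted p under 0.05 and over 5 points. Transcripts were tested with edgeR 4.0.16 (quasi-likelihood test after filterByExpr, and diffSpliceDGE for usage). All p-values were adjusted by the Benjamini-Hochberg method over all features tested, and single shares were compared by exact permutation over libraries.

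In the text, transcripts of at least 0.5 TPM on average were named, and for each list the gene with the highest mean and up to 3 genes past the threshold with the largest change and a mean of at least 100 normalized counts. Other genes were named for their roles. The members, lists and named rules were chosen with earlier results of these data known. Tests were checked on simulated data. At the gene level 112 of 200 genes changed 1.5-fold were recovered, with 23 false calls, over 27276 genes. The exon fit recovered 17 of 200 exons shifted by 20 points and 79 of 200 shifted by 40 points, over 37773 exons. Sequences were read from hg38. A gene that the naming rule selects and a sequence are not reported here. Intervals cover the spread between libraries. Chi-square per degree of freedom between libraries of a group was 6.48 to 16.4, so no pair was one library deposited as several. R 4.3.3 and Python 3.11.15 were used.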

Additional observations from a re-analysis of the deposited data

How the results depend on the processing

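The NUMBL gene level kept its direction and call in 11 of 11 alternatives (log2 0.31 to 0.39), and the NUMB gene level (0.04 to 0.10) and both NUMB exons (10.3 to 14.7 points and -5.77 to -0.61 points) stayed on the side of no call in every alternative run. The number of pathway list genes past the threshold was 45, and 32 to 41 in the alternatives, with 21 to 29 higher (32 in the reported fit) and 10 to 15 lower (13). Transcript counts were less stable. By DESeq2, 2 NUMB transcripts (NUMB-211 and NUMB-215) and 2 NUMBL transcripts (NUMBL-207 and NUMBL-208) passed in abundance, against 0 and 1 by edgeR. For DESeq2 the share over all transcripts was not recorded. Leaving out 1 library gave 0 to 1 NUMB transcripts in abundance, the 1 being NUMB-203 without shCtrl replicate 3, 0 to 2 in usage, and 0 to 0 NUMBL transcripts in abundance. With a lower count filter 1 NUMB transcript, NUMB-213, passed in usage. A limma test of usage, added after the simulated false calls were seen, called 0 NUMB transcripts. The causes of these differences were not tested, apart from fewer samples when a library is left out.

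No sign of pairing by replicate number was seen, since deviations of libraries with the same number correlated at 0.094, -0.02 and -0.11. These values cannot show whether such libraries were handled together. With the replicate block the NUMBL log2 fold change was 0.36, the long exon differed by 12.8 points (adjusted p 0.579), 35 list genes passed and 0 NUMBL transcripts passed in abundance. Of 39 other named genes and transcripts, 26 kept their call in all alternatives, 13 crossed the threshold at least once and 0 changed direction.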
